A study of Sus scrofa with 6 samples.

Results

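The Toll-like receptors were followed by symbol, TLR1 to TLR10, in lung tissue of piglets taken around birth. Of the 10 named receptors, 8 had a row in the table of 14579 expressed mRNAs. These were 5 of 6 surface receptors (TLR1, TLR2, TLR4, TLR5 and TLR6) and 3 of 4 endosomal receptors (TLR3, TLR7 and TLR8). TLR9 and TLR10 had no row and were not analysed here, since a level under the table's filter and an identifier outside its annotation cannot be told apart. The animals were female hybrids of a Tibetan sire and a Meishan dam. The fetal group held 3 piglets taken on the last day before birth and the neonatal group held 3 piglets taken 2 days after birth, named Fetal1 to Fetal3 and Neonatal1 to Neonatal3. Apart from ketamine given before exsanguination, the study describes no agent or genetic change. It mentions both caesarean and parturition without giving the route for each group. The fetal piglets came from 3 sows and the neonatal piglets from another 3, so that litter is part of the spread within each group. Whole lung was sequenced, and in bulk tissue a larger number of expressing cells and more RNA per cell cannot be told apart.

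Toll-like receptors are sensors of the innate immune system that bind conserved parts of microbes, and some products of damaged tissue, through repeats rich in leucine. TLR4 binds bacterial lipopolysaccharide together with LY96, TLR2 binds lipopeptides as a partner of TLR1 or TLR6, and TLR5 binds flagellin, all at the cell surface. TLR3 binds double-stranded RNA, TLR7 and TLR8 bind single-stranded RNA, and TLR9 binds DNA in endosomes, to which the chaperone UNC93B1 delivers them. The adaptor MYD88 serves the family except for TLR3, which signals through TICAM1, an adaptor that TLR4 also uses. In lung, alveolar macrophages, recruited leukocytes and epithelium are known to carry different members of the family.

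Levels are given as FPKM, the number of sequenced fragments of a transcript normalised to its length and to the mapped total of the library. A difference is the neonatal minus the fetal mean of log2(FPKM + 1) with its standard error (SE), fitted with limma across all 14579 mRNAs, and an mRNA passed at a Benjamini-Hochberg adjusted p of 0.05 or less. The added 1 shrinks the differences of genes near or under 1 FPKM. The study states the mapped reads of each library, but the table holds no counts, so the number of fragments behind a value is not given here. The summed FPKM of all mRNAs ran from 339491 to 471220 in fetal lungs and from 491548 to 777982 in neonatal lungs, whereas the median mRNA stood at 4.99 to 5.42 against 5.56 to 6.11 FPKM. The surfactant protein mRNA SFTPC, which marks alveolar type II cells, reached at least 3171 FPKM and the type I cell marker AGER at least 396 FPKM in every library.

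After birth, 3 of the 8 measured members of the family rose, namely TLR2, which recognises lipopeptides, and TLR7 and TLR8, which recognise single-stranded RNA. Among all mRNAs, 1001 passed in either direction (6.87%) and 789 were higher in neonatal lungs (5.41%). These 789 were 78.8% of the calls, a share that became 29.2% when each library was scaled to its summed FPKM, where the median difference of all mRNAs was -0.36. TLR7 entered the table through its neonatal values, so the counts cover the 8 rows and not the whole family. Mean levels were higher in neonatal lungs for 7 of the 8 receptors, with TLR5 as the exception, beside 8729 of all 14579 mRNAs. For TLR3 the sign turned when each library was scaled to its summed FPKM. All neonatal values lay above all fetal values for 5 receptors, TLR1, TLR2, TLR4, TLR7 and TLR8, against 20.9% of all mRNAs. The median difference of the 8 receptors was 0.73, beside 0.13 for all mRNAs. The 3 calls were close to the threshold: none was left when any single library other than Neonatal1 was omitted, and none was left after scaling to the summed FPKM, where 3 receptors had an unadjusted p under 0.05 in limma.

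**Figure D1:**
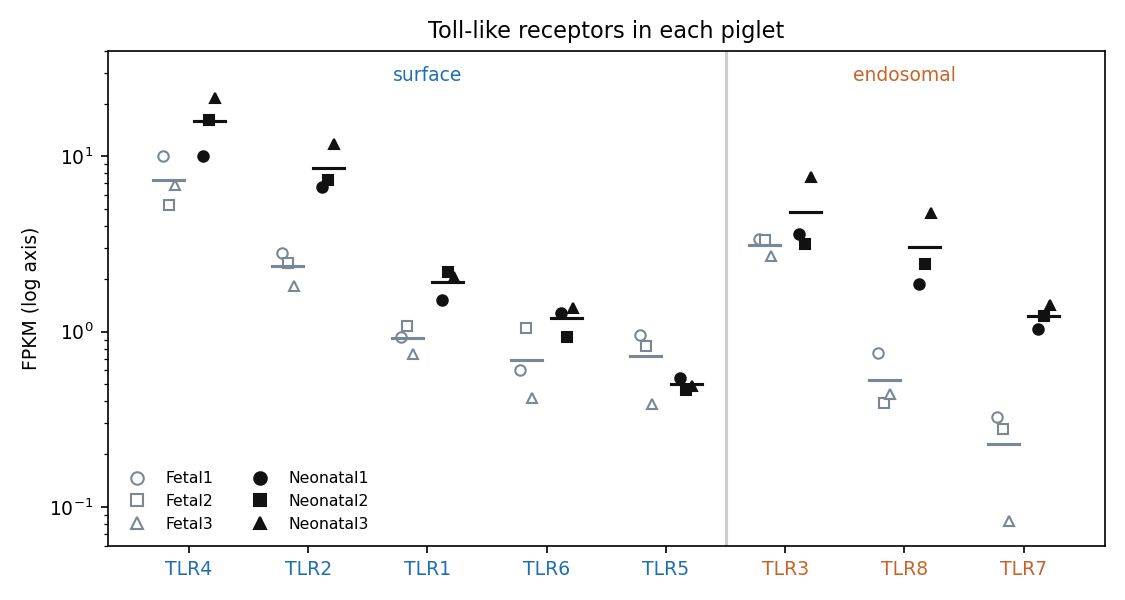
FPKM of the 8 measured Toll-like receptors in each of the 6 lungs, on a log axis, with open symbols for the 3 fetal and filled symbols for the 3 neonatal piglets. TLR4 stood highest in both groups (means of 7.36 and 15.9 FPKM), and the groups did not overlap for TLR1, TLR2, TLR4, TLR7 and TLR8. TLR7 reached the filter of the table only in neonatal lungs.

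TLR4, the lipopolysaccharide receptor, was the most abundant member in each of the 6 lungs. Fetal lungs had 9.98, 5.29 and 6.81 FPKM, and neonatal lungs had 10.0, 16.0 and 21.6 FPKM. The groups did not overlap, although the highest fetal and the lowest neonatal value nearly touched. The mean was 7.36 ± 2.39 FPKM (SD, n = 3) before birth and 15.9 ± 5.81 FPKM (SD, n = 3) after it, a ratio of 2.16. The difference of 0.99 (SE 0.32, 95% interval 0.25 to 1.74) did not pass in limma (adjusted p = 0.114). Among all mRNAs, the mean level of TLR4 (ENSSSCG00000005503) stood at percentile 59.9 in fetal and 76.5 in neonatal lungs.

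Neither of the main partner molecules of TLR4 passed the threshold. CD14, which hands lipopolysaccharide to the receptor, had 26.4, 9.89 and 25.6 FPKM in fetal and 30.5, 61.1 and 57.6 FPKM in neonatal lungs (adjusted p = 0.120 in limma). LY96, the subunit that holds the ligand, had 14.3, 12.6 and 16.9 FPKM in fetal and 4.27, 9.07 and 10.18 FPKM in neonatal lungs. All 3 neonatal values of LY96 lay below the fetal values, while those of CD14 lay above, and the difference for LY96 was -0.89 (adjusted p = 0.133 in limma). After scaling to the summed FPKM, LY96 did pass as lower (difference -1.49, adjusted p = 0.0169 in limma), and CD14 had a difference of 0.73 (adjusted p = 0.174 in limma). The difference between the 2 genes was not tested.

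TLR2 had the largest difference of the family on the log2(FPKM + 1) scale. Its levels were 2.80, 2.46 and 1.83 FPKM in fetal and 6.68, 7.31 and 11.7 FPKM in neonatal lungs, so that the lowest neonatal lung exceeded the highest fetal lung. The mean rose from 2.36 ± 0.493 to 8.58 ± 2.76 FPKM (SD, n = 3 each), a ratio of 3.63. The difference was 1.48 (SE 0.25, 95% interval 0.90 to 2.07) with an adjusted p of 0.0180 in limma. TLR2 (ENSSSCG00000009002) moved from percentile 29.6 to 60.2 of mRNA levels. Over the settings that kept all 6 lungs, the adjusted p of TLR2 ran from 0.0133 to 0.0593.

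The receptors that pair with TLR2 were present at lower levels. TLR1 (ENSSSCG00000026583), which forms the receptor for triacylated lipopeptides, had 0.929, 1.08 and 0.743 FPKM in fetal and 1.51, 2.17 and 2.05 FPKM in neonatal lungs. The groups did not overlap, with means of 0.917 ± 0.168 and 1.91 ± 0.351 FPKM (SD, n = 3), yet the difference of 0.60 (SE 0.20, 95% interval 0.13 to 1.07) did not pass in limma (adjusted p = 0.127). TLR6 (ENSSSCG00000026592), the other partner, had 0.605, 1.05 and 0.417 FPKM in fetal and 1.28, 0.930 and 1.36 FPKM in neonatal lungs. Here 1 fetal lung lay above 1 neonatal lung, and the difference was 0.39 (SE 0.23, 95% interval -0.14 to 0.91; adjusted p = 0.334 in limma). TLR1 and TLR6 are closely related genes that lie side by side in the pig genome, with TLR10 on the other side of TLR1, and the reference table lists TLR6 as a synonym of TLR1. Reads may therefore have been split between them, and their separate levels are uncertain.

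The balance between TLR2 and its partners was compared as a ratio within each lung. In fetal lungs the TLR2 level was 2.59 ± 0.382 times that of TLR1 and in neonatal lungs 4.51 ± 1.19 times (SD, n = 3). Relative to TLR6, the ratio was 3.79 ± 1.25 in fetal and 7.23 ± 1.78 in neonatal lungs (SD, n = 3). Neither pair of groups overlapped. Each ratio had p = 0.1 in a two-sided exact permutation test, the smallest value that 3 against 3 lungs can give, and an adjusted p of 0.15 over the 6 ratios compared. Those 6 include the ratios of TLR7 to TLR3 and of TLR8 to TLR7, which are given below only as descriptions. The ratio of TLR2 to TLR4 was 0.338 ± 0.110 in fetal and 0.555 ± 0.106 in neonatal lungs, with overlapping groups (exact permutation p = 0.2, adjusted 0.24).

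TLR5, the flagellin receptor, was the only member with a lower mean after birth. It had 0.951, 0.832 and 0.385 FPKM in fetal and 0.546, 0.462 and 0.491 FPKM in neonatal lungs. The lowest lung of all was fetal, and the 3 neonatal lungs lay within the fetal range. The difference for TLR5 (ENSSSCG00000010885) was -0.19 (SE 0.22, 95% interval -0.69 to 0.32) and did not pass in limma (adjusted p = 0.636). TLR5 ranked at percentile 12.6 of mRNA levels in fetal and 8.20 in neonatal lungs, and it exceeded 0.5 FPKM in 3 of 6 lungs.

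Among the endosomal receptors, TLR3 was the most abundant. This sensor of double-stranded RNA had 3.37, 3.33 and 2.70 FPKM in fetal and 3.62, 3.17 and 7.57 FPKM in neonatal lungs. Neonatal3 stood apart, while Neonatal1 lay just above and Neonatal2 within the fetal range. The difference for TLR3 (ENSSSCG00000015801) was 0.41 (SE 0.30, 95% interval -0.28 to 1.10; adjusted p = 0.432 in limma). It was 0.091 without Neonatal3 and -0.070 after scaling to the summed FPKM. The mRNA whose values followed TLR3 most closely over the 6 lungs was IFI44, a gene induced by interferon (Pearson r = 0.995, over 6 libraries that share the 2 groups, given as a description). IFI44 had 1.41, 1.95 and 0.560 FPKM in fetal and 2.13, 1.15 and 16.2 FPKM in neonatal lungs, again highest in Neonatal3, and ERAP2 and PM20D2 came next.

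TLR8 had the largest ratio of group means in the family, 5.69. Levels of this receptor for single-stranded RNA were 0.758, 0.390 and 0.443 FPKM in fetal and 1.88, 2.44 and 4.74 FPKM in neonatal lungs. Every neonatal lung was above 1 FPKM and every fetal lung was below it. The mean rose from 0.530 ± 0.199 to 3.02 ± 1.52 FPKM (SD, n = 3), with a difference of 1.34 (SE 0.29, 95% interval 0.65 to 2.02; adjusted p = 0.0387 in limma). TLR8 (ENSSSCG00000012118) moved from percentile 9.77 to 32.4 of mRNA levels. Its adjusted p ran from 0.0333 to 0.0835 over the settings with all 6 lungs.

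TLR7, the close relative of TLR8, was also higher in neonatal lungs, at a lower level. It had 0.327, 0.277 and 0.0826 FPKM in fetal and 1.04, 1.22 and 1.42 FPKM in neonatal lungs. The groups were well apart, and the deposited filter of 0.5 FPKM was reached only in the 3 neonatal lungs, so that the row owes its place in the table to the neonatal group. The mean rose from 0.229 ± 0.129 to 1.23 ± 0.194 FPKM (SD, n = 3), a ratio of 5.36. The difference for TLR7 (ENSSSCG00000012117) was 0.86 (SE 0.20, 95% interval 0.39 to 1.33) and passed narrowly in limma (adjusted p = 0.0493). Of 8 alternative settings with all 6 lungs, 2 kept the call, and over these 8 the adjusted p ran from 0.0400 to 0.142. TLR7 and TLR8 lie next to each other in the pig genome, and the reference table lists TLR7 as a synonym of TLR8.

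**Figure D2:**
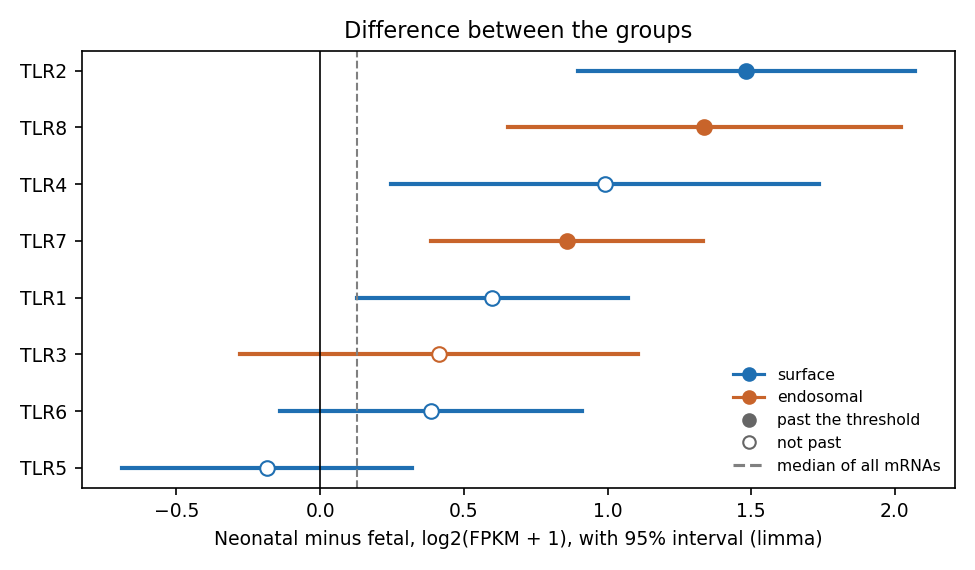
Neonatal minus fetal difference in log2(FPKM + 1) for each of the 8 Toll-like receptors, with the 95% interval from limma and n = 3 lungs per group. The intervals of TLR2, TLR8, TLR4, TLR7 and TLR1 lie above 0. TLR2 (1.48), TLR8 (1.34) and TLR7 (0.86) passed the threshold, but none of them did after scaling to the summed FPKM. The interval of TLR3 (0.41) includes 0, and the sign of its difference turned after that scaling. TLR7 reached the filter of the table only in neonatal lungs.

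The levels of TLR7 and TLR8 relative to TLR3 were also compared. TLR8 stood at 0.169 ± 0.0540 of the TLR3 level in fetal and at 0.639 ± 0.127 in neonatal lungs (SD, n = 3). The groups did not overlap, and the exact permutation p was 0.1, again the smallest possible, with an adjusted p of 0.15. For TLR7 the ratio to TLR3 was 0.0703 ± 0.0351 in fetal and 0.287 ± 0.0985 in neonatal lungs (SD, n = 3). It is given as a description, since only the neonatal values brought TLR7 past the filter of the table. TLR8 exceeded TLR7 in all 6 lungs, by a factor of 3.03 ± 2.07 in fetal and 2.38 ± 0.826 in neonatal lungs (SD, n = 3). The groups overlapped, and this ratio too is given as a description, for the same reason. These ratios do not depend on how a library is scaled as a whole.

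Surface and endosomal receptors were then set side by side. Of the 5 measured surface receptors, 4 had a higher neonatal mean, 3 had all neonatal values above all fetal values and 1 passed, with a median difference of 0.60 and a range from -0.19 to 1.48. Of the 3 measured endosomal receptors, 3 had a higher neonatal mean (TLR3 not after scaling to the summed FPKM), 2 had non-overlapping groups and 2 passed, with a median difference of 0.86 and a range from 0.41 to 1.34. The endosomal median is the value of TLR7 itself, which also gives 1 of the 2 endosomal calls and which is in the table through its neonatal values alone, so these counts do not bear on a difference between the classes. The ranges overlap, and no test was made between the classes because their members are not replicates. Over all 14579 mRNAs, 8729 had a higher neonatal mean and 20.9% had all neonatal values above all fetal values. The class medians also moved with the scale, to 0.98 for the surface and 2.09 for the endosomal receptors with a pseudocount of 0.1. With each library scaled to its summed FPKM, the surface median was 0.33 and the endosomal median 0.94, and TLR3 alone of the measured receptors changed sign.

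Summed over members, both classes had nearly the same ratio of group means, with a wide spread between the neonatal lungs. The 8 receptors together reached 19.7, 14.7 and 13.4 FPKM in fetal and 26.6, 33.7 and 51.0 FPKM in neonatal lungs, a ratio of means of 2.33. Surface receptors went from a mean of 12.1 to 28.1 FPKM (ratio 2.33) and endosomal receptors from 3.89 to 9.03 FPKM (ratio 2.32). In Neonatal1, Neonatal2 and Neonatal3 the surface sum was 20.0, 26.9 and 37.3 FPKM and the endosomal sum 6.53, 6.83 and 13.7 FPKM. Both neonatal means, the endosomal one above all, thus lean on Neonatal3. Endosomal receptors made up 22.6, 27.1 and 24.0% of the family total in fetal and 24.6, 20.2 and 26.9% in neonatal lungs. The groups overlapped, and the mean difference of -0.68 percentage points became 0.60 without Fetal2 and 1.15 without Neonatal2. As a share of all summed FPKM, the family stood at 46.4, 43.3 and 28.5 ppm in fetal and at 54.1, 55.9 and 65.6 ppm in neonatal lungs.

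As shares of the family total, several single members did not overlap between the groups. How often other mRNAs would separate on such a share was not computed. TLR7 and TLR8 together held 5.50, 4.53 and 3.92% of the family total in fetal and 11.0, 10.9 and 12.1% in neonatal lungs. TLR3 took up 19.9 ± 2.77% in fetal and 12.6 ± 2.86% in neonatal lungs (SD, n = 3), with ranges of 17.1 to 22.6% and 9.39 to 14.8%. For TLR7 the higher neonatal share was favoured by the filter of the table, which its fetal values did not reach. TLR8 alone held 2.65 to 3.84% in fetal and 7.06 to 9.29% in neonatal lungs. Of the family total, TLR8 thus held more and TLR3 less in each neonatal lung than in any fetal lung. On the surface side, TLR2 held 13.6 to 16.7% in fetal and 21.7 to 25.1% in neonatal lungs. TLR5 held 2.87 to 5.66% in fetal and 0.963 to 2.05% in neonatal lungs. TLR4 kept the largest share, 45.8 ± 8.50% in fetal and 42.5 ± 4.90% in neonatal lungs (SD, n = 3). The shares of a whole depend on each other, so these are given without a test.

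**Figure D3:**
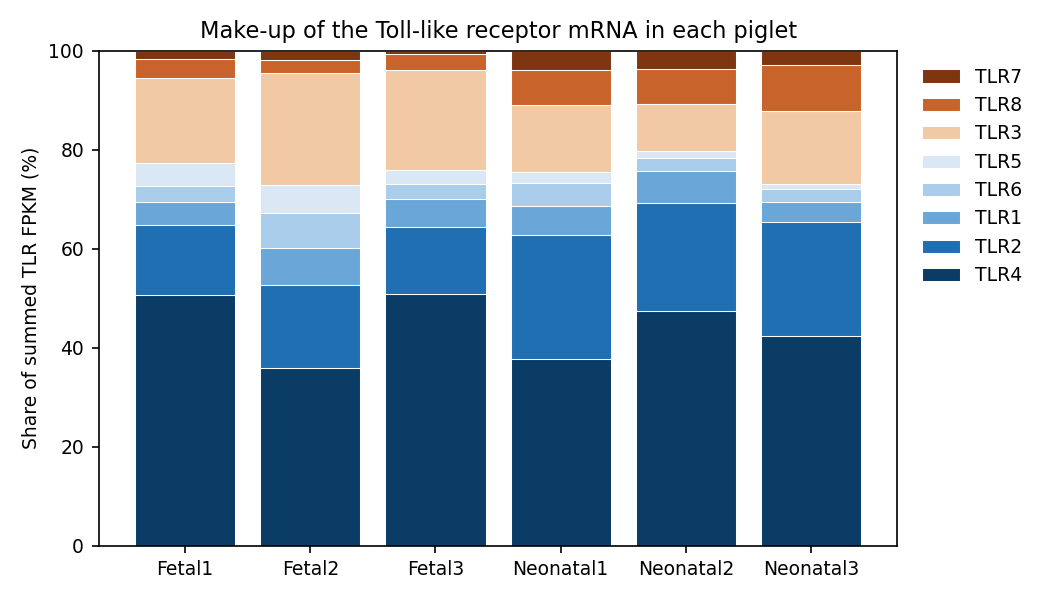
Share of the summed FPKM of the 8 measured Toll-like receptors held by each receptor, in percent, with a stacked bar for each of the 3 fetal and 3 neonatal lungs. TLR4 holds the largest share in every bar, and TLR7 with TLR8 holds 3.92 to 5.50% in fetal and 10.9 to 12.1% in neonatal lungs, while TLR3 holds 17.1 to 22.6% in fetal and 9.39 to 14.8% in neonatal lungs. TLR7 reached the filter of the table only in neonatal lungs.

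The order of mean levels differed between the groups. In fetal lungs it ran TLR4, TLR3, TLR2, TLR1, TLR5, TLR6, TLR8 and TLR7. Only TLR4 over TLR3, TLR2 over TLR1 and TLR8 over TLR7 were neighbours with ranges that did not overlap. In neonatal lungs the order was TLR4, TLR2, TLR3, TLR8, TLR1, TLR7, TLR6 and TLR5. There only TLR1 over TLR7 and TLR6 over TLR5 had separate ranges, although TLR4, TLR2, TLR3, TLR8, TLR1 and TLR7 followed this order in each of the 3 neonatal lungs. TLR7 and TLR6 did not differ beyond their spread, with means of 1.23 and 1.19 FPKM and the order kept in 2 of 3 lungs.

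Markers of leukocytes, which carry several of these receptors, had higher means in neonatal lungs. Of 6 listed genes, 5 were measured (PTPRC, CD53, LCP1, LAPTM5 and ITGB2), all 5 with a higher mean (beside 8729 of all 14579 mRNAs), and their summed FPKM ran from 66.4 to 109 in fetal and from 126 to 263 in neonatal lungs. Only LCP1, an actin-bundling protein of blood cells, passed (difference 1.20, adjusted p = 0.0334 in limma), and the median difference was 1.20. After scaling to the summed FPKM, LCP1 had a difference of 0.68 (adjusted p = 0.121 in limma), no leukocyte marker passed and the median was 0.68. Of 13 macrophage markers, 6 were measured, all with a higher mean, and 0 passed in limma, although 4 had an unadjusted p under 0.05 (beside 3535 of all 14579 mRNAs) and 1 passed with quantile normalization. Their sums of 268 to 638 in fetal and 474 to 1137 FPKM in neonatal lungs overlapped, and the sign of CSF1R turned under other scalings. The highest of them, MARCO and C1QA, a scavenger receptor and a complement subunit, had differences of 1.24 and 0.60 (adjusted p = 0.188 and 0.386 in limma). C1QC and AIF1, named only from the study's own table of differing genes, are left out of these counts. Neither passed (adjusted p = 0.317 and 0.0569 in limma).

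The receptors were also expressed relative to the 5 leukocyte markers. On a log2 scale without an added constant, TLR7 lay 1.40 and TLR8 1.22 higher against these markers in neonatal than in fetal lungs, with no overlap of the groups. For TLR7 this direction was favoured by the filter, which its fetal values did not reach. TLR3 lay 0.73 lower and TLR5 1.67 lower, with all neonatal values below the fetal ones, although for TLR3 the nearest fetal and neonatal lungs differed by little (-2.37 and -2.38). The markers themselves had a median difference of 1.20, beside 0.13 for all mRNAs, so an unchanged mRNA would also lie lower against them. In FPKM the groups overlapped for TLR3 and TLR5. The share of all mRNAs without overlap on this ratio was not computed. TLR2 differed by 0.60, TLR4 by -0.15, TLR1 by -0.18 and TLR6 by -0.36, each with overlapping groups. Against the 6 macrophage markers, TLR7 (1.73) and TLR8 (1.55) again lay higher in every neonatal lung, and the other 6 receptors overlapped. The part of leukocyte number in the levels of the receptors was not tested.

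**Figure D4:**
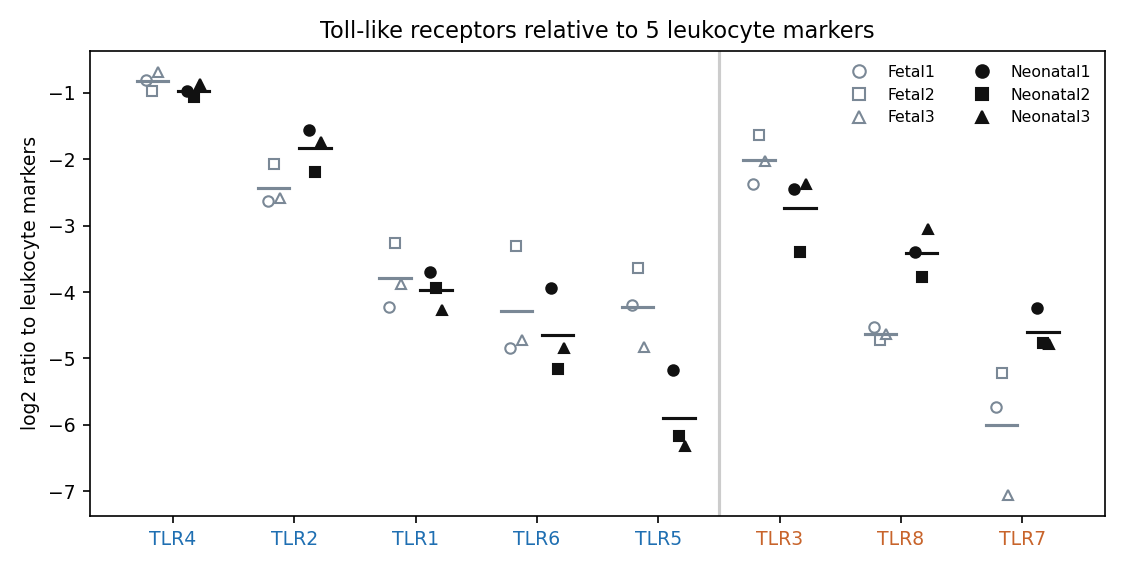
Log2 ratio of each Toll-like receptor's FPKM to the geometric mean FPKM of 5 leukocyte markers in each of the 6 lungs, with open symbols for the 3 fetal and filled symbols for the 3 neonatal piglets. TLR7 and TLR8 are higher in every neonatal lung (by 1.40 and 1.22 on average; TLR7 reached the filter of the table only in neonatal lungs), TLR3 and TLR5 are lower in every neonatal lung (by 0.73 and 1.67), and the groups overlap for the rest. The markers themselves had higher neonatal means, so an unchanged mRNA would also lie lower.

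Other cell types gave mixed values. Of 11 neutrophil markers, 6 were measured, of which S100A8 and LTF were higher (differences 2.81 and 1.58) and LCN2 was lower (difference -1.57) past the threshold in limma (adjusted p = 0.00254, 0.0328 and 0.0157). The neutrophil elastase ELANE was listed at 0 in the 3 neonatal lungs. Its row reached the filter of the table only through fetal lungs, so this direction was favoured by the filter. S100A9 and S100A12, whose names came only from the study's own table of differing genes, were higher as well. CLDN5, EMCN, BATF3 and SFTPA1 were named in the same way and are left out of the counts below. Of 6 B cell markers 3 were measured and had lower neonatal means, with 0 past the threshold in limma. An unadjusted p under 0.05 in limma was found for 2 of these 3, beside 3535 of all 14579 mRNAs. MS4A1, among these 2, had 0.386 to 0.860 FPKM in fetal and at most 0.0740 FPKM in neonatal lungs. Its row exceeded the filter of the table only in Fetal2, so a lower neonatal value was favoured by the filter. T and NK cell markers (6 of 9 measured), dendritic cell markers (3 of 8), type I (3 of 6) and type II (5 of 7) alveolar markers, airway markers (3 of 5) and endothelial markers (3 of 7) had 0 members past the threshold in limma and at most 1 each with an unadjusted p under 0.05. After scaling to the summed FPKM, the endothelial markers KDR and TEK and the type II cell marker NAPSA passed as lower (adjusted p = 0.0466, 0.0491 and 0.0433 in limma), and LTF no longer passed (0.136). Of 4 measured mesenchymal markers, ACTA2 and TAGLN of smooth muscle were higher (differences 1.74 and 1.75, adjusted p = 0.0138 and 0.0317 in limma). The part of these cell types in the receptor levels was not tested.

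The mRNAs that followed the 3 called receptors most closely over the 6 lungs were listed as a description, since all share the same libraries and the contrast between the groups. TLR2 was followed by GALM (Pearson r = 0.999), PIK3AP1 (0.998) and ASF1A (0.996). PIK3AP1 is itself an adaptor that links Toll-like receptors to phosphoinositide 3-kinase. TLR8 was followed by TAGAP, RHBDF2 and APOOL, and TLR7 by KDELR3, FAM78A and TMEM254. Of 9477 named mRNAs compared, 351 had r above 0.95 with TLR2, 365 with TLR7 and 372 with TLR8, but 76 with TLR3.

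The genes around the receptors were counted by role. Among 62 measured genes of 7 lists, 10 passed, each higher in neonatal lungs on the deposited scale, beside 6.87% of all mRNAs in either direction and 5.41% higher. IL1A, among these 10, entered the table through its neonatal values alone. After scaling to the summed FPKM, 8 passed, of which LY96 and the matrix protein DCN were lower (differences -1.49 and -0.76, adjusted p = 0.0169 and 0.0464 in limma), and DCN was also lower with quantile normalization (0.0482). The count was 4 without Fetal2, 6 without Fetal3 and 5 without either Neonatal2 or Neonatal3. A further 7 genes of these lists were named only from the study's own table of differing genes and are left out of the counts, since that table was chosen on these lungs. Of the lists with no member past the threshold, ligand delivery and co-receptors (5 of 7 measured) had 3 members with an unadjusted p under 0.05 in limma. CD14 and CD180 were higher and LY96 was lower in neonatal lungs. CD180 reached the filter of the table only in neonatal lungs, so its direction was favoured by the filter. Kinases, ligases and transcription factors (19 of 22 measured) had 9 members with an unadjusted p under 0.05 in limma and a median difference of 0.56. Negative regulators (9 of 13 measured) had 2 such members and a median difference of 0.20. By the same measure, 3535 of all 14579 mRNAs had an unadjusted p under 0.05 in limma, a share near that of the negative regulators. NFKB1, a transcription factor among the 9, was listed at 156 to 384 FPKM in fetal and at 1136, 628 and 4174 FPKM in neonatal lungs. IRAK3, a negative regulator, had 571 FPKM in Neonatal3 and at most 22.9 FPKM in the other lungs. Whether these values belong to the named genes alone was not tested.

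Signalling adaptors and the machinery of the endosomal receptors included 3 of the 10. Among 4 measured adaptors of 6, PIK3AP1 rose from 2.25 ± 0.277 to 5.08 ± 1.05 FPKM (SD, n = 3; difference 0.90, adjusted p = 0.0447 in limma). MYD88 had a difference of 0.14 (adjusted p = 0.786), whose sign turned under other scalings, and TICAM1 of 0.99 (adjusted p = 0.0692 in limma). Among 11 measured genes of 15 for trafficking and processing, the lysosomal protease CTSL rose from 1.38 ± 0.296 to 9.90 ± 2.51 FPKM (SD, n = 3; difference 2.18, adjusted p = 0.00435 in limma). Legumain, LGMN, an asparaginyl endopeptidase that cleaves endosomal receptors, rose from 27.1 ± 9.85 to 63.1 ± 7.56 FPKM (SD, n = 3; difference 1.24, adjusted p = 0.0408 in limma). UNC93B1, the carrier of the endosomal receptors, had a difference of 0.47 (adjusted p = 0.479 in limma), and its sign turned after scaling to the summed FPKM.

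Products and ligands of the pathway held the other 7. Of 6 measured cytokines and chemokines that these receptors induce, out of 16 listed, 3 rose. They were IL1A (difference 1.48, adjusted p = 0.0115 in limma), the neutrophil attractant CXCL2 (1.75, 0.00960) and the monocyte attractant CCL2 (2.48, 0.0206). For IL1A a higher call was favoured by the filter of the table, which its fetal values of at most 0.255 FPKM did not reach. CCL2 went from 3.08 ± 2.54 to 19.5 ± 5.54 FPKM (SD, n = 3). Of 8 measured endogenous ligands and lung collectins, out of 12 listed, 4 rose. TNC, an extracellular matrix protein known to activate TLR4, went from 6.97 ± 2.47 to 55.9 ± 2.74 FPKM (SD, n = 3; difference 2.88, adjusted p = 0.00183 in limma). S100A8 went from 33.4 ± 6.68 to 239.5 ± 48.8 FPKM (SD, n = 3; difference 2.81, adjusted p = 0.00254 in limma). The matrix proteins VCAN and FN1 rose by 1.61 and 1.02 (adjusted p = 0.00669 and 0.0447 in limma). These 10 genes kept their sign under the 3 other scalings, but not all kept their call. After scaling to the summed FPKM, PIK3AP1, LGMN, FN1 and VCAN no longer passed (adjusted p = 0.255, 0.125, 0.260 and 0.0545 in limma). PIK3AP1 and FN1 were also lost with median-of-ratios scaling (0.0545 and 0.0661), and FN1 with quantile normalization (0.166).

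**Figure D5:**
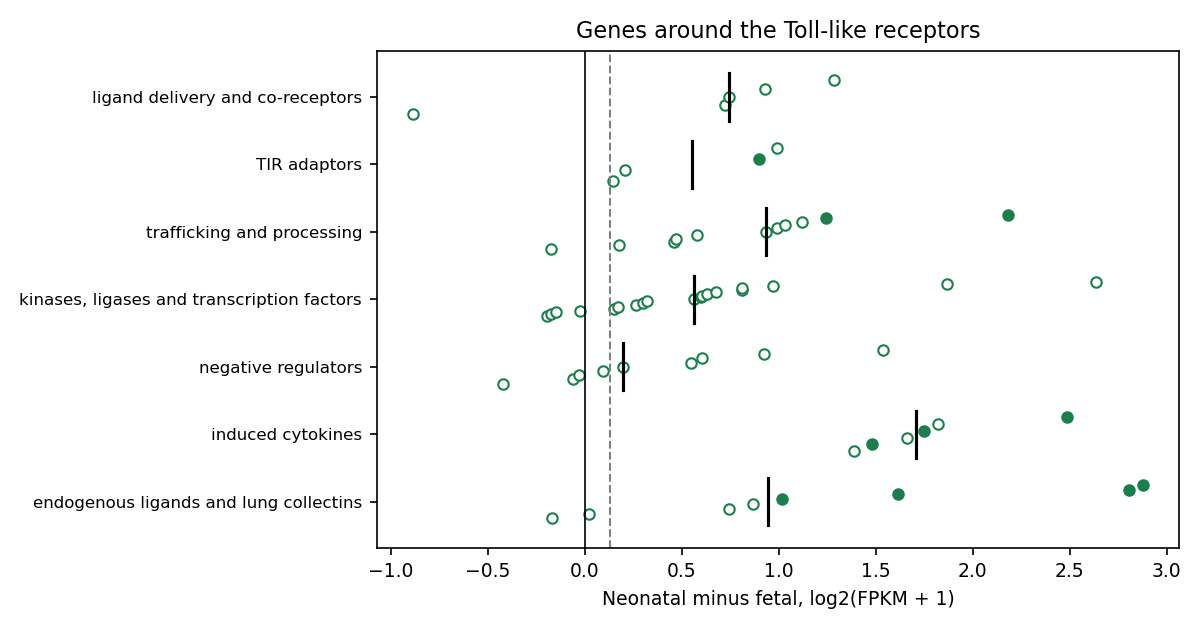
Neonatal minus fetal difference in log2(FPKM + 1) for each measured gene of 7 lists around the Toll-like receptors, with 3 lungs per group, and the median over all mRNAs (0.13) as a dashed line. Filled points passed the threshold, and black bars are list medians. The cytokines have the highest median (1.71), and the genes past the threshold, 10 in all, lie to the right of 0. IL1A, among the 10, reached the filter of the table only in neonatal lungs.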

How the data were processed

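Ribosomal RNA was depleted and strand-specific libraries of whole lung were sequenced. Per the study's methods and the submitters' processing notes, reads were aligned to Sscrofa10.2 with TopHat (2.1.0), and the authors deposited FPKM from Cufflinks (2.2.1) for mRNAs above 0.5 FPKM in at least 1 sample. The study states mapped reads per library, but no counts were used, so counting error per gene is not given. Identifiers were paired with symbols through a gene name table (9478 matched). A listed gene counts as measured only if it was matched there, so other listed genes may still have a row without a name. The deposited lncRNA values were not used here. The reference table is of another build (Sscrofa11.1), so it gave only gene order and synonyms, and no sequence or position is printed. The members and the gene lists were chosen with earlier results of these data known. limma (3.58.1, R 4.3.3, trended prior) was run on log2(FPKM + 1) over 14579 mRNAs with Benjamini-Hochberg adjustment. p-values measure the spread between 3 piglets per group. Ratios were compared with exact permutation tests, 2-sided. Named genes were the receptors, list members past the threshold (up to 4 each way) with up to 2 others, the 2 highest and up to 3 called markers, and the 3 best-correlated mRNAs per receptor. A few further list genes (LY96, CD180, NFKB1, IRAK3, CSF1R, ELANE, MS4A1, DCN, KDR, TEK, NAPSA) were named after their values were seen. The script was tested on simulated data. Alternatives covered pseudocounts, a filter, scalings, a replicate block and omission of each lung.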

Additional observations from a re-analysis of the deposited data

How the results depend on the processing

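Of the 8 receptors, 3 passed with the settings used, 2 with a pseudocount of 0.5 or 0.1, a stricter filter (3 or more lungs above 1 FPKM), or median-of-ratios scaling, and 3 with quantile normalization or without a trend. With each library scaled to its summed FPKM, an alternative chosen after seeing the data, 0 passed in limma (3 with an unadjusted p under 0.05) and TLR3 reversed to -0.070. Shared replicate numbers did not pair the lungs (correlations of deviations of -0.0407, -0.00434 and 0.000466). With the replicate block, 0 receptors passed in limma (5 with an unadjusted p under 0.05), at adjusted p of 0.0593 for TLR2, 0.0835 for TLR8 and 0.142 for TLR7, and 401 mRNAs passed. Unadjusted p under 0.05 was counted over all mRNAs only for the settings used. There 3535 of 14579 mRNAs and 5 of the 8 receptors had one in limma.

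With 1 lung left out, 0 to 2 receptors passed in limma (2 without Neonatal1, 0 without any other lung, where 4 or 5 had an unadjusted p under 0.05), 196 to 944 mRNAs and 4 to 11 genes of the pathway lists. The lists kept 4 calls without Fetal2, 6 without Fetal3, 5 without Neonatal2 and 5 without Neonatal3. The endosomal share differed by -2.18 to 1.15 percentage points, reversed to 0.60 without Fetal2 and to 1.15 without Neonatal2. The surface median ran from 0.53 to 0.70 and the endosomal median from 0.77 to 0.92 with 1 lung left out.

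The surface median was 0.98 with a pseudocount of 0.1, 0.80 with the stricter filter (which drops TLR5), 0.33 with scaling to the summed FPKM, 0.99 without TLR1, TLR6 and TLR10, and 1.06 as a log2 ratio of mean FPKM. The endosomal median was 1.25 and 2.09 with pseudocounts of 0.5 and 0.1, 0.94 with scaling to the summed FPKM and 2.42 as a log2 ratio of mean FPKM. Larger pseudocounts shrink low genes by construction. The median over all mRNAs was 0.13, -0.0090 with median-of-ratios scaling, -0.038 with quantile normalization and -0.36 with scaling to the summed FPKM. The share of calls that were higher in neonatal lungs was 78.8%, 65.99%, 57.9% and 29.2% in the same order. Running without any further filter gave the same fit, since each row of the table already passed the deposited filter. Counting limits per gene could not be set from FPKM.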

Other observations

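The mRNAs whose levels followed the other surface receptors most closely over the 6 lungs were LPCAT3, DAAM1 and TIMM17B for TLR4 (302 of 9477 named mRNAs with r above 0.95), SEC23IP, LOXL3 and BCAS4 for TLR1 (196), IVNS1ABP, SIX4 and SLC44A4 for TLR5 (22), and DFFB, MST1 and C5orf22 for TLR6 (13). These are descriptions over libraries that share the contrast between the groups.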
